A study of Mus musculus with 3 samples.

Results

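The AP-1 and immediate early genes examined here are the 4 Fos genes (Fos, Fosb, Fosl1 and Fosl2), the 3 Jun genes (Jun, Junb and Jund), Egr1, Egr2 and the serum response factor Srf. They were chosen by gene name, and each of the 10 names matched 1 of the 55573 genes listed. Their expression was measured by UMI-RNAseq in 3 libraries of untreated NIH3T3 cells, a mouse fibroblast line in long use. The cells were grown in medium with 10% fetal bovine serum, so serum was present during growth. They were then detached with trypsin and washed with buffer before lysis. The libraries are named library 1, library 2 and library 3 after their replicate numbers. They share 1 condition. Neither the labels nor the methods state whether each came from its own culture, so the SD given here may be technical. The deposited unit is FPKM, which divides the counted fragments of a gene by its length in kilobases and by the library total in units of 1000000. Fragment numbers behind the FPKM were recovered from the annotated gene lengths, with totals of 13959723 to 14423209 fragments per library. The extraction text of the labels mentions retina, but 0 of 12 retina marker genes reached a mean FPKM of 1, against 11 of 12 fibroblast marker genes. Nrl and Crx, which define photoreceptors, had 0 and 2 fragments in all libraries together. The highest retina markers were Rcvrn, Sag and Opn1sw, with means of 0.363, 0.353 and 0.321 FPKM from 16, 29 and 17 fragments. The fibroblast marker below that limit was Fap, with 3 fragments in all. Epithelial, endothelial and blood cell markers reached that limit in 0 of 6, 1 of 6 and 1 of 6 genes.

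Immediate early genes are those that a resting cell transcribes within minutes of a stimulus such as serum, without first making new protein. Fos and Jun proteins join through a leucine zipper into the transcription factor AP-1. A Jun protein can pair with itself or with a Fos protein, while Fos proteins need a partner. AP-1 binds the TRE (TGACTCA) and, less tightly, the CRE (TGACGTCA). Egr proteins bind GC-rich sites through zinc fingers, and Srf binds the CArG box, through which serum and actin signals reach many immediate early genes. In growing cultures, Fosl1 and Fosl2 are known for steadier expression than Fos and Fosb, whose transcripts are short-lived.

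The 5′ flanking sequences were searched for exact matches to sites bound by the proteins of the members, and to the TATA box. RefSeq promoters (GRCm38.p6) were found for 8 of the 10 genes, with 12 start sites in all, and not for Fosl1 and Egr1. The 250 bases before each start were searched on both strands for TRE, CRE, CArG box, Egr motif (GCGGGGGCG or GCGTGGGCG) and TATA box (TATAAA). The last 120 bases before the start are given 5′ to 3′ on the strand of the gene for the 5 members with a match, with the matches in capitals.
Srf, chr17:46556163-46556282, minus strand: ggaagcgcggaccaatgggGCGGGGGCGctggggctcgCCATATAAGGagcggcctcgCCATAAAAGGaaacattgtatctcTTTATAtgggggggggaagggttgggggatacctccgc
Egr2, chr10:67537749-67537868, plus strand: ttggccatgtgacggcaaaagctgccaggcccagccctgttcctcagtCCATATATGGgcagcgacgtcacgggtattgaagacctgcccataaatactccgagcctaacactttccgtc
Fosb, chr7:19310046-19310165, minus strand: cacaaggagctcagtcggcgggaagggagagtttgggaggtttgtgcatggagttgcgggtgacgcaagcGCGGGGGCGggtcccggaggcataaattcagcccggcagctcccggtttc
Fosl2, chr5:32136352-32136471, plus strand: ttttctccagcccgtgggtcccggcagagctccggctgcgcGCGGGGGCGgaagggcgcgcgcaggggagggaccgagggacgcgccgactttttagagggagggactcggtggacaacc
Fos, chr12:85473770-85473889, plus strand: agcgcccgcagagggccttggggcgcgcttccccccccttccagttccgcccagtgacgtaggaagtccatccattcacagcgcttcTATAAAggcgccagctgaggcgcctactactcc

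The promoter of Srf held 2 CArG boxes, which begin 82 and 62 bases before its start, next to an Egr motif that begins 101 bases before it. A TATA box on the opposite strand was its last match. For Egr2 the table gives 5 starts, and 4 of them had a CArG box within 250 bases. There were 2 distinct boxes, since 3 of these starts share the same box. Neither the Srf start nor those of Egr2 in the table are the outermost ends of these genes in RefSeq, which lie further upstream. In the window printed, the box begins 72 bases before the start. Fosb and Fosl2 each held 1 Egr motif, which begins 50 and 79 bases before the start. The Fosb start also lies 73 nt inside the outermost end of that gene in RefSeq, so its motif falls within the gene span. In Fos the match was a TATA box. The exact letters of TRE and CRE were found in 0 of the 12 windows. Over all 32851 promoters in the table, 1.47% held a CArG box, 3.06% an Egr motif, 12.4% a TATA box, 4.46% a TRE and 1.55% a CRE. These matches are letters in a window and not measured binding. Sites further upstream, or with letters that differ from these, were not searched for, so a gene without a match may still carry such a site.

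Each of the 10 genes was expressed. Their mean FPKM lay between 7.67 for Egr2 and 225.1 for Junb, a 29.4-fold range, with a median of 45.8 over the 10 genes. All 10 had a mean FPKM of at least 1, which 23.2% of the genes listed reached, and 7 of 10 had a mean of at least 10, which 14.8% of the genes listed and 63.6% of the 12905 genes with a mean of at least 1 reached. The median of those 12905 genes was 17.5 FPKM. An FPKM of a culture is an average, so few cells with much transcript and many cells with little cannot be told apart.

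**Figure D1:**
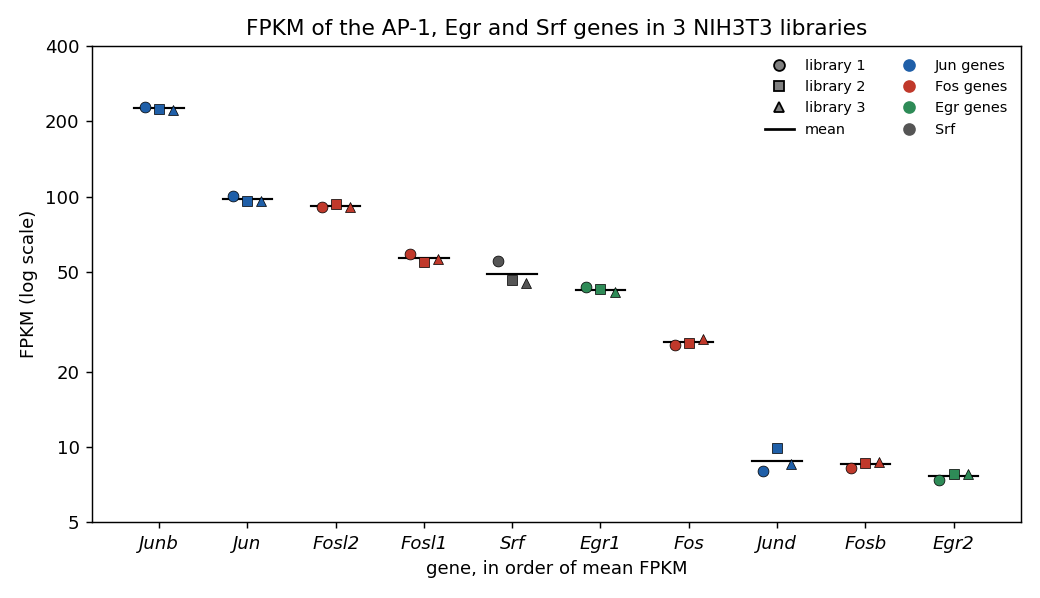
FPKM (log scale) of each gene in libraries 1, 2 and 3 (points) with the mean (line), in order of mean FPKM and coloured by family. Junb lies highest at 225.1, Jund, Fosb and Egr2 form a low group between 7.35 and 9.88, and library 1 stands above the others for Srf.

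Among the Jun genes, Junb was highest. Junb (ENSMUSG00000052837, chromosome 8 from 84974484 to 84978718, minus strand) encodes a Jun protein that can restrain growth and oppose c-Jun on some promoters. It had 228.8, 223.7 and 222.7 FPKM in libraries 1, 2 and 3, with a mean of 225.1 ± 3.27 (SD, n = 3), and ranked 435 among the 12905 expressed genes. Library 1 was the highest, by a factor of 1.03 over the lowest.
Jun (ENSMUSG00000052684, chromosome 4 from 95049034 to 95052222, minus strand) encodes c-Jun, the main transactivating Jun protein, in a single exon. Its values were 100.7, 96.1 and 96.4 FPKM, with a mean of 97.8 ± 2.57 (SD, n = 3) and rank 1241. The values of Junb and Jun did not overlap, and Junb lay 2.27-fold, 2.33-fold and 2.31-fold above Jun in libraries 1, 2 and 3.
Jund (ENSMUSG00000071076, chromosome 8 from 70698949 to 70700616, plus strand), also annotated with 1 exon, encodes a Jun protein known for steady expression in resting and growing cells. It had 7.98, 9.88 and 8.51 FPKM, with a mean of 8.79 ± 0.979 (SD, n = 3) and rank 8532. Library 2 was the highest. Jun lay above Jund by a factor of 11.2 ± 1.45 (SD, n = 3), and Junb by a factor of 25.8 ± 3.03. These factors depend on the gene length used, and 52.6% of the Jund exon is shared with an antisense gene, as described below. Divided by the exon bases that no other gene shares, the factors were 5.74 ± 0.740 (SD, n = 3) for Jun and 6.63 ± 0.776 for Junb.

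Among the Fos genes, the Fos-like genes Fosl2 and Fosl1 lay above Fos and Fosb. Fosl2 (ENSMUSG00000029135, chromosome 5 from 32135801 to 32157842, plus strand) encodes Fra-2, a Fos protein without the strong transactivation domain of c-Fos. It had 90.9, 93.1 and 90.9 FPKM, with a mean of 91.6 ± 1.29 (SD, n = 3) and rank 1348. Libraries 1 and 3 were nearly equal.
Fosl1 (ENSMUSG00000024912, chromosome 19 from 5447547 to 5455946, plus strand) encodes Fra-1, which is linked to motile mesenchymal and tumour cells. Its values were 58.8, 54.8 and 56.4 FPKM, with a mean of 56.7 ± 2.04 (SD, n = 3) and rank 2445. They lay below each value of Fosl2.
Fos (ENSMUSG00000021250, chromosome 12 from 85473890 to 85477273, plus strand) encodes c-Fos, the founding immediate early AP-1 protein. It had 25.5, 26.0 and 27.1 FPKM, with a mean of 26.2 ± 0.818 (SD, n = 3) and rank 4993. Fosl2 lay 3.50-fold ± 0.124 (SD, n = 3) and Fosl1 2.17-fold ± 0.126 above Fos.
Fosb (ENSMUSG00000003545, chromosome 7 from 19302696 to 19310051, minus strand) encodes FosB and, by splicing, the truncated and more stable ΔFosB, which a value per gene does not separate. It had 8.27, 8.65 and 8.74 FPKM, with a mean of 8.55 ± 0.251 (SD, n = 3) and rank 8607. Fos lay 3.06-fold ± 0.0461 (SD, n = 3) above Fosb.

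Srf and Egr1 were close to each other, and Egr2 was the lowest of the 10 genes. Srf (ENSMUSG00000015605, chromosome 17 from 46548329 to 46556175, minus strand) encodes the factor that binds the CArG box. It had 55.5, 46.3 and 45.1 FPKM, with a mean of 49.0 ± 5.66 (SD, n = 3) and rank 2852. Library 1 stood apart from libraries 2 and 3.
Egr1 (ENSMUSG00000038418, chromosome 18 from 34859823 to 34864984, plus strand) encodes a zinc finger factor induced by growth factors and stress. Its values were 43.6, 42.6 and 41.5 FPKM, with a mean of 42.5 ± 1.03 (SD, n = 3) and rank 3318. The lowest Srf value lay above the highest Egr1 value, by a narrow margin in libraries 2 and 3, where Srf was 1.09-fold Egr1.
Egr2 (ENSMUSG00000037868, chromosome 10 from 67535475 to 67542188, plus strand), known from Schwann cells and hindbrain patterning, had 7.35, 7.83 and 7.82 FPKM. The mean was 7.67 ± 0.270 (SD, n = 3), and the rank 8885. Egr1 lay 5.56-fold ± 0.323 (SD, n = 3) above Egr2.

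The order of the means was Junb, Jun, Fosl2, Fosl1, Srf, Egr1, Fos, Jund, Fosb and Egr2. Of the 9 ratios between neighbours in this order, 8 lay above 1 in each library, and for 7 of the 9 the values of the genes did not overlap. The pairs and their direction were taken from these same values, so ratios above 1 follow in part from the sorting. The ratios and the permutation test on them thus describe the order and are no independent check of it. Jund and Fosb could not be ordered, since Jund was at 0.965, 1.14 and 0.973 times Fosb in libraries 1, 2 and 3, and without library 2 the log2 ratio turned from 0.03 to -0.05. Fosl1 and Srf overlapped between libraries, because Srf in library 1 was above Fosl1 in library 2, although Fosl1 was the higher within each library, by a factor of 1.06 to 1.25. Jun and Fosl2 were separated by a factor of only 1.03 to 1.11. A sign-flip permutation test, exact and two-sided over the libraries, gave p = 0.25 for 8 ratios and p = 1 for Jund over Fosb, and 0.281 for the 8 after Benjamini-Hochberg adjustment over the 9 ratios. With 3 libraries 0.25 is the smallest p the test can give, so it could not pass 0.05.

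Since AP-1 is a dimer with at least 1 Jun protein in it, the summed transcript levels of the families were set side by side. The Jun genes summed to 337.5, 329.7 and 327.6 FPKM in libraries 1, 2 and 3, and the Fos genes to 183.4, 182.6 and 183.1. The Jun sum was higher in each library, by a factor of 1.84, 1.81 and 1.79, with a mean log2 ratio of 0.86 ± 0.02 (SD, n = 3). The same exact permutation test again gave the smallest p it allows, 0.25. In the deposited FPKM, Junb made up 67.9% ± 0.0919 (SD, n = 3) of the Jun sum, Jun 29.5% ± 0.345 and Jund 2.65% ± 0.319. Of the Fos sum, Fosl2 made up 50.1% ± 0.814, Fosl1 31.0% ± 1.05, Fos 14.3% ± 0.456 and Fosb 4.67% ± 0.145. Fos and Fosb, the classic serum-induced members, thus held the smaller part of the Fos sum in each library. These are transcript levels, and protein or dimers were not measured here.

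**Figure D2:**
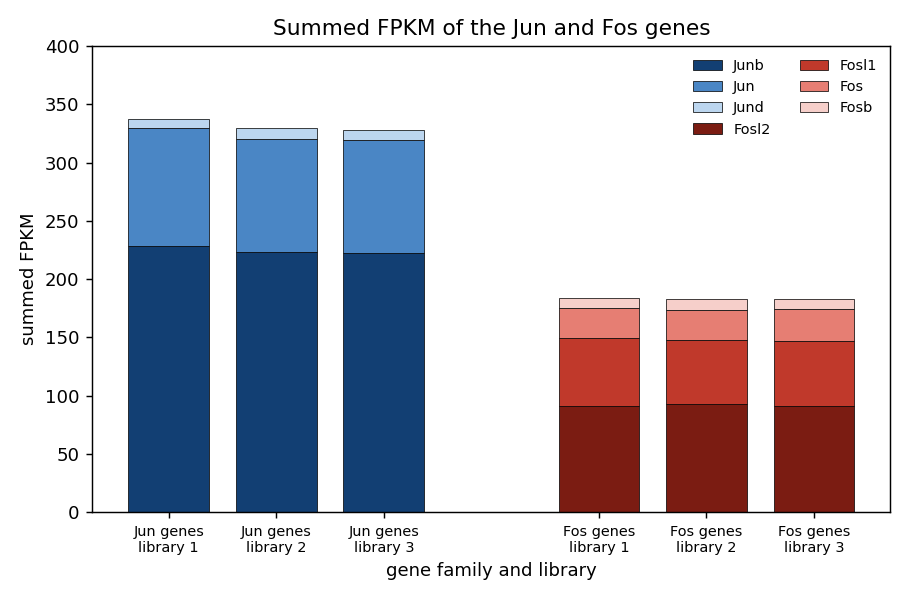
Summed FPKM of the Jun genes (blue bars) and the Fos genes (red bars) in libraries 1, 2 and 3, each bar split by gene. The Jun bars reach 327.6 to 337.5 and consist mostly of Junb, and the Fos bars reach 182.6 to 183.4, of which Fosl2 makes up 50.1% in the mean.

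The levels between genes depend on the gene length by which fragments were divided. For the members this length was the mean of the isoforms annotated in GENCODE M21. Jun and Jund have 1 isoform of 3189 and 1668 nt, so nothing is averaged. For Srf, with 4 isoforms of 376 to 2616 nt, the mean is 1056 nt and the longest is 2.48 times that. The factor was 2.06 for Fosl1, 1.93 for Fos, 1.90 for Egr2, 1.67 for Fosl2 and 1.57 for Junb, and lowest for Egr1 and Fosb, at 1.19 and 1.16. Dividing by the longest isoform gave 143.2 ± 2.08 for Junb (SD, n = 3), 97.8 ± 2.57 for Jun, 54.7 ± 0.771 for Fosl2 and 35.7 ± 0.866 for Egr1. Srf fell to 19.8 ± 2.28 (SD, n = 3) in that setting, which put it below Egr1 by a factor of 0.553 ± 0.0517. Without division by length, Fosl2 was first with 357.8 ± 5.04 fragments per 1000000 (SD, n = 3), ahead of Jun with 311.8 ± 8.18 and Junb with 259.0 ± 3.77. In fragments per 1000000, Fosl2 alone made up 76.8% ± 0.478 (SD, n = 3) of the Fos sum, and the Jun sum stayed above the Fos sum by a factor of 1.26 ± 0.0299. Within the Jun sum, Junb made up 57.3% ± 0.103 (SD, n = 3) and Jun 39.1% ± 0.451 with the longest isoform. In fragments per 1000000 Jun held the larger share, with 53.3% ± 0.459 (SD, n = 3) against 44.2% ± 0.173 for Junb.

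The annotation of 4 of the 10 genes overlaps an exon of another gene on the opposite strand, and neither the methods nor the labels give the strand setting of the counting. For Jund, 877 nt or 52.6% of its exon are shared with the antisense gene Gm11175, which is listed at 0 in each library. A count of 0 there allows up to 0.451 FPKM in the library with the highest limit, at 3 fragments and for counting error only. For Fosl1, 1163 nt or 57.2% of the exon bases are shared with Ccdc85b, which had 10.2, 10.8 and 10.1 FPKM. Jun shares 232 nt (7.28%) with its antisense gene Junos, which had 41.3, 43.6 and 42.3 FPKM, and Junb shares 173 nt (7.52%) with the peroxiredoxin gene Prdx2, at 61.36, 61.38 and 59.95 FPKM. In addition, the RefSeq gene extends upstream of the GENCODE start by 1210 nt for Jund, 2092 nt for Srf and 1006 nt for Egr2, stretches that the GENCODE gene does not cover, and by 67 nt for Fosb and 30 nt for Junb. Dividing by the exon bases that no other gene shares, a choice made after the values were seen, raised Jund to 18.5 ± 2.07 (SD, n = 3) and left Fosl1 at 59.0 ± 2.13. This length starts from all exon bases of a gene and not from the mean isoform, and all counted fragments were kept. It therefore also changed genes without shared bases, from 1092 to 2352 nt for Fos and from 3905 to 9680 nt for Fosl2. For Fosl1 it was 870 nt against a mean of 906 nt. The Jund value assumes that no fragment in its shared bases was counted. In that setting Fos had 12.2 ± 0.380 and lay below Jund, Fosl2 had 37.0 ± 0.521 and lay below Fosl1, and Jun still lay 5.74-fold ± 0.740 above Jund. How HTSeq treated fragments in the shared bases was not tested. The other 6 genes shared 0 nt of exon, and 0% of their distinct 75-nt words occurred in a transcript of another gene.

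**Figure D3:**
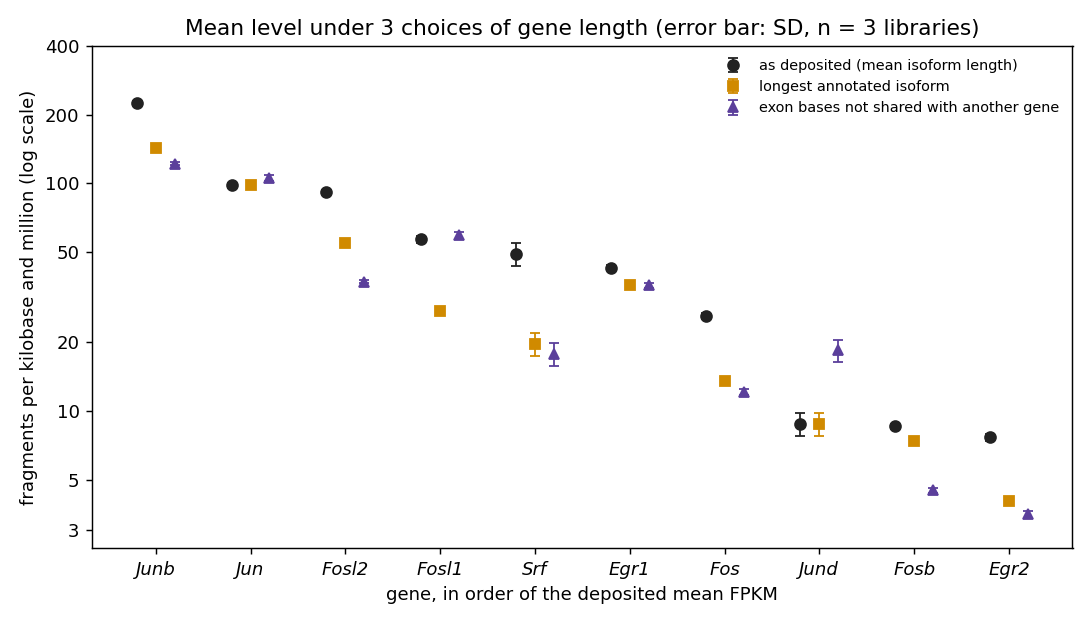
Mean level ± SD (n = 3 libraries, log scale) of each gene when fragments are divided by the mean isoform length (as deposited), the longest isoform or the exon bases not shared with another gene. Junb and Jun stay in the 2 highest places, Srf moves from 49.0 to 19.8 and 17.9, and Jund rises from 8.79 to 18.5 with the last choice.

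Of the 10 genes, only Srf differed between the libraries by more than counting error in the chi-square used here. The fragments behind the values numbered 166 to 175 per library for Egr2, the fewest, 192 to 230 for Jund and 5076 to 5118 for Fosl2, the most. A chi-square of the fragments against the library totals was computed for the 15317 genes with at least 15 fragments, with Benjamini-Hochberg adjustment over them. It compares these libraries and not conditions, and it called 277 genes (1.81%) at an adjusted p under 0.05. Among the 9910 of them with at least 300 fragments, which include the 10 members, it called 2.35%. Of the 10 members it called 1, Srf, with 845, 683 and 682 fragments in libraries 1, 2 and 3 and an adjusted p of 0.00426. The coefficient of variation of Srf was 11.5% against 3.70% from counting error alone, and library 1 exceeded library 3 by a factor of 1.23. Without library 1, libraries 2 and 3 differed by a factor of 1.03 with an adjusted p of 0.98, so the call rests on library 1. Over all genes compared, an unadjusted p under 0.05 was found for 8.78% between libraries 1 and 2, 8.93% between libraries 1 and 3 and 6.82% between libraries 2 and 3. Of the 277 genes called, 124 were highest in library 1. The part of these library differences in the Srf value was not tested.

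Jund had a coefficient of variation of 11.1%, close to that of Srf, but counting error alone gives 6.95% at its depth, and its adjusted p in the same chi-square was 0.613. For Jun the coefficient was 2.62% against 1.502%, with an unadjusted p of 0.0462 and an adjusted p of 0.541. For the other 7 genes it lay between 1.41% for Fosl2 and 3.60% for Fosl1, with adjusted p values of 0.820 to 0.979. A difference between libraries in these 9 genes was not called after adjustment over all genes tested, which does not show that they were equal. For Fos, with 401, 397 and 423 fragments, and Fosb, with 390, 395 and 409, the coefficients of 3.12% and 2.94% were below the 4.96% and 5.01% of counting error.

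**Figure D4:**
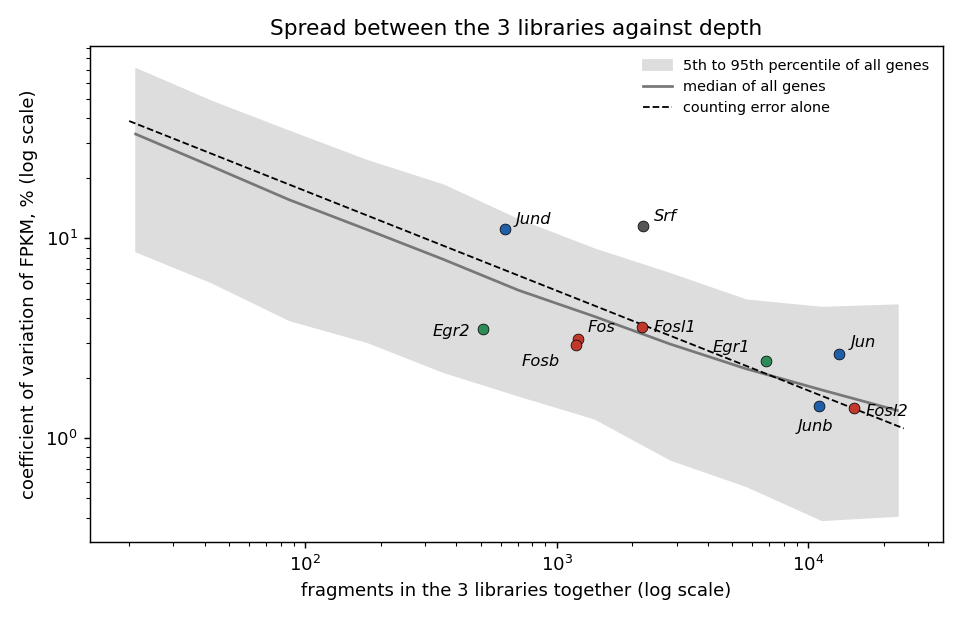
Coefficient of variation of FPKM over the 3 libraries (log scale) against the fragments in all libraries (log scale), with the genes as points, the median and the 5th to 95th percentile of all genes tested, and the line of counting error alone. Srf, at 11.5% and 2210 fragments, lies above the 95th percentile band, in which genes with 2000 to 4000 fragments reach 6.67%.

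The genes that act with these factors were described from lists drawn from general knowledge. Of 14 genes for other AP-1 dimer partners, 8 had a mean FPKM of at least 1, and those 8 also reached 10. Atf4, an effector of the integrated stress response, was the highest with 375.1 ± 6.09 FPKM (SD, n = 3) and lay above Junb. Mafg, a small Maf protein, had 99.7 ± 0.228 and Atf7 69.6 ± 3.02. At the other end, Batf was listed at 0, which allows up to 0.289 FPKM in the library with the highest limit, and Batf3, a factor of blood cells, had 2 fragments in all. The median of the list was 33.8 FPKM.

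The relatives and corepressors of Egr1 and Egr2 and the cofactors of Srf were mostly present. Egr3 had 3.12 ± 0.319 FPKM (SD, n = 3), below Egr2, and Egr4 was listed at 0, with an upper limit of 0.10 FPKM in the library with the highest limit. Nab1 and Nab2, corepressors that bind Egr proteins, had 47.2 ± 1.96 and 20.6 ± 1.72 FPKM. Srf works with ternary complex factors, which carry MAP kinase signals, and with the actin-sensing MRTF proteins. Of the former, Elk4 had 45.7 ± 1.61 FPKM (SD, n = 3), Elk3 43.2 ± 0.395 and Elk1 7.15 ± 0.134. Of the latter, Mrtfa had 34.4 ± 1.07 and Mrtfb 22.6 ± 0.796, while Myocd, the cofactor of cardiac and smooth muscle, was listed at 0, with an upper limit of 0.0752 FPKM in the library with the highest limit. In the deposited FPKM, the mean of Elk4 lay within the range of the Srf libraries, and that of Elk3 below it. With the longest isoform Srf had 19.8, and Elk3 and Elk4 were not computed with that length.

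In the MAP kinase route that leads from growth factor receptors to these genes, 12 of 14 genes reached a mean FPKM of 1, and the median was 45.1. The kinase gene Rps6ka3 had 164.2 ± 1.27 FPKM (SD, n = 3) and Mapk3, which encodes ERK1, 161.6 ± 4.23. The lowest were Rps6ka1 with 4 fragments in all, Mapk10, the JNK gene of neurons, with 0.152 ± 0.0133 FPKM (SD, n = 3), and Rps6ka5 with 8.60 ± 0.316.

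Of 21 other immediate early genes, 19 had a mean FPKM of at least 1 and 18 of at least 10, and their median of 49.5 FPKM lay close to that of the 10 members. Myc, which drives growth and proliferation, had 246.2 ± 6.11 FPKM (SD, n = 3) and Klf4 230.1 ± 4.74, both above Junb in the mean, followed by the small GTPase gene Rhob with 205.1 ± 9.32. The Klf4 values of 225.0 to 234.4 overlapped those of Junb. The lowest were the activity-linked genes of neurons Npas4, with 0.343 ± 0.112 (SD, n = 3), and Arc, with 1.58 ± 0.322, and the nuclear receptor gene Nr4a3, with 0.577 ± 0.139. The chi-square between libraries called 3 genes of the list, Rhob, Ier5 and Klf2, of which Ier5 and Klf2 were named after their values were seen. Like Srf, they were highest in library 1. Klf2, for example, had 48.0, 40.2 and 39.2 FPKM in libraries 1, 2 and 3, with an adjusted p of 5.25e-05.

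Genes linked to AP-1 or Srf as targets covered a wide range. Of 12 AP-1 linked genes, 11 reached a mean FPKM of 1, and the median was 96.6. Spp1, which encodes osteopontin, had 3568 ± 16.2 FPKM (SD, n = 3), Vegfa 316.6 ± 5.47 and the cyclin gene Ccnd1 178.1 ± 2.52, whereas the collagenase gene Mmp13 had 7.91 ± 0.0911, Mmp9 1.01 ± 0.194 and Mmp10 0.654 ± 0.114. Of 8 cytoskeletal genes linked to Srf, 5 reached a mean of 1. Flna had 324.6 ± 5.45 FPKM (SD, n = 3), Tpm1 170.0 ± 1.48 and the focal adhesion gene Vcl 69.2 ± 0.638. The genes of smooth muscle differed among themselves. Tagln, Cnn1 and Actg2 had 5, 4 and 2 fragments in all libraries together, whereas Acta2 had 34.6 ± 0.748 FPKM (SD, n = 3) and Myl9, with 27 fragments, 1.02 ± 0.118. Acta2 and Myl9 are named after their values were seen. These are levels in a single condition, so no target was tied to a factor here.

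**Figure D5:**
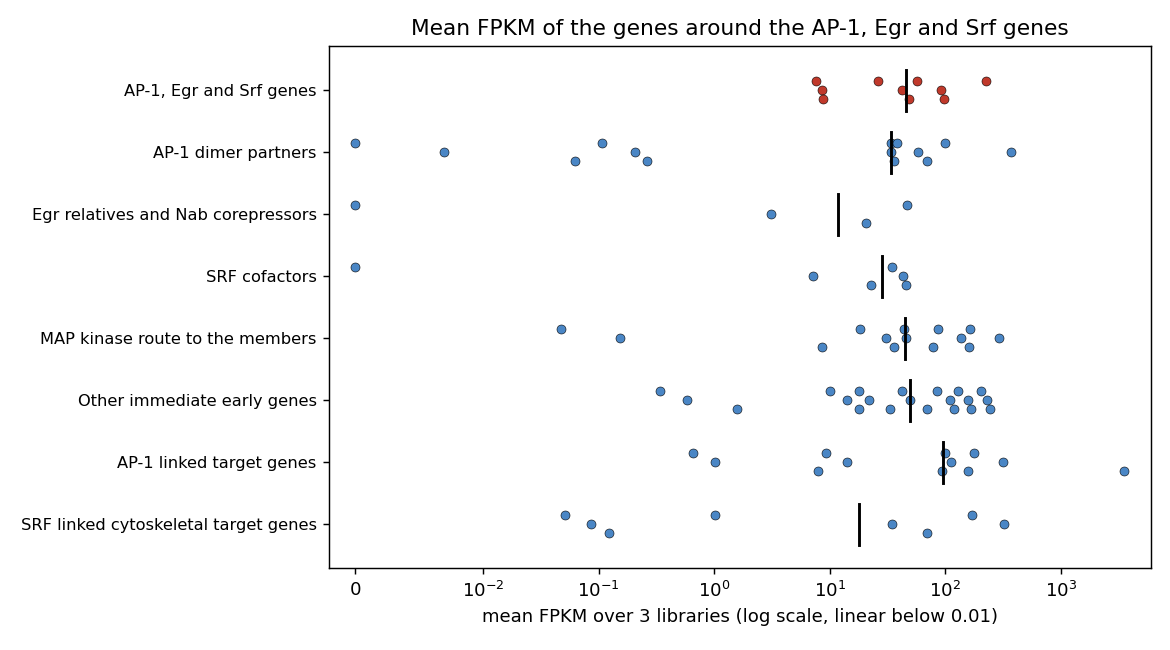
Mean FPKM over 3 libraries (log scale, linear below 0.01) of the 10 genes (red points) and of the genes in 7 lists around them (blue points), with the median of each group as a line. The 10 genes lie between 7.67 and 225.1 with a median of 45.8, while each list except the MAP kinase, the other immediate early, the AP-1 target and the Srf target genes holds a gene listed at 0.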

How the data were processed

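UMI-RNAseq was measured in 3 libraries of NIH3T3 cells. According to the methods, reads with a UMI (UMI-tools 1.0.0) were mapped with Hisat2 (2.0.4 per the submitters' processing notes), reads at the same place with the same UMI were removed, and genes were counted with HTSeq 0.6.1. The authors then deposited FPKM per gene and library, and replicates were not pooled. The build and annotation of the counting are not given in the sources used here. The 2 tables deposited are identical in value over 55573 genes, and 0 value columns went unused.

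Because FPKM is not a count, count models were not used. Fragments were computed (Python 3.11.15, pandas 2.3.3, numpy 2.4.6) as FPKM times the mean isoform length in GENCODE M21 (GRCm38) times the library total, which came from genes with 1 isoform. They were whole within 0.001 for 25966 of 26193 genes with a value above 0 (99.13%). Recovery and chi-square (scipy 1.17.1) were run on simulated fragments that used the same gene lengths and had counting error as their only random spread. That run checks the computation and cannot show that these libraries vary by counting error alone. Figures used matplotlib 3.10.9.

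The 10 members and the lists were chosen with earlier results of these data known. Named genes are the members, each gene of lists of up to 6, the 3 highest and 3 lowest of longer lists, list genes above the highest member, and genes overlapping a member. Alternatives were leaving out each replicate, TPM, median-of-ratios scaling, other lengths, pseudocounts, and other limits on FPKM or fragments. No group was compared, since there is 1 condition. PCR duplicates were removed by UMI, and limits on a count of 0 cover counting error only. Some genes that this rule names are not reported here.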

Additional observations from a re-analysis of the deposited data

How the results depend on the processing

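No paired analysis was possible because only 1 group exists. The alternatives gave 271 values, of which 217 stayed on the same side of 0 (ratios), within 1 SD (levels) or within 1.5 times (counts), 44 moved further and 10 turned a log2 ratio between neighbours. With the longest isoform, Srf over Egr1 became -0.86. Without division by length, Junb over Jun became -0.27, Jun over Fosl2 -0.20, Fosl1 over Srf -0.0050, Srf over Egr1 -1.64 and Jund over Fosb -0.94, and 4 of 9 neighbour ratios lay above 1 in each library against 8. With exon bases not shared with another gene, chosen after seeing the data, Fosl2 over Fosl1 became -0.67, Srf over Egr1 -1.003 and Fos over Jund -0.60. Jund over Fosb lay between -0.045 and 0.076 with a library left out, below 0 without library 2. The cause was not tested, beyond the lengths themselves. The log2 ratio of the Jun over the Fos sum stayed between 0.33 and 1.27 in these settings, and at 0.82 without Jund. With a library left out, the chi-square called 107 to 189 genes against 277, and 0 to 1 of the 10 members, with 107 genes and 0 members without library 1. At a limit of 0.1 FPKM, 3 retina and 1 epithelial marker counted as expressed, and at a limit of 10, 0 endothelial and 0 blood cell markers. Rescaling to TPM and median-of-ratios scaling multiplied every gene of a library alike. The ratios between genes within a library could not change in these 2 settings, yet they count among the 217 values, so that number overstates the stability.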
